A study of Homo sapiens with 31 samples.

Results

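Rhosin, a small molecule made to block the activation of the GTPase RHOA, was compared with its solvent DMSO in RIVA, an established human line of diffuse large B-cell lymphoma of the activated B-cell (ABC) type. The comparison took 6 of the 31 RNA sequencing samples of the study, 3 RIVA libraries at 60 µM Rhosin for 10 h and 3 RIVA libraries in DMSO for 10 h. The groups set beside them were 3 RIVA libraries at 10 nM ibrutinib, an inhibitor of the B-cell receptor kinase BTK, and Rhosin and DMSO libraries of TMD8 and HBL1, established lines of the same lymphoma type, 3 of each. TMD8 cells kept overnight in 50 nM copanlisib, 2 libraries, served only to check gene names. All of these were labelled wild type, and nothing in the labels says whether replicates were separate cultures, so the p-values measure the spread between these libraries. RHOA is a small GTPase that switches between a GDP-bound and a GTP-bound form and steers the actin cytoskeleton and contractility. Lymphomas of this type often live on B-cell receptor signals that reach NF-kB, whose targets include IRF4 and CD83. In bulk RNA, fewer cells and less RNA per cell cannot be told apart.

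All 63140 rows of the RIVA count table entered the analysis. The row labels are Ensembl gene IDs, and they tracked the levels of the genes they name only in 7 segments, on chromosomes 4, 5, 6, 9, 11, 18 and 19. Spearman's rank correlation between RIVA DMSO counts and the levels in wild-type TMD8 cells under 50 nM copanlisib, an inhibitor of PI3K, was 0.842 over 898 genes inside the segments and 0.071 over 17245 genes outside, as a description. Genes are named only inside the segments and, CD83 apart, only where the level check held, which left 926 genes, of which 589 were tested and are called level-checked below. The check was made in TMD8 and does not show whether all exons of a gene were counted. Where the RIVA level lay over 3 log2 units from that of TMD8, the name is said to be checked in TMD8 only. CD83 missed the check by a small margin, was left out of all counts and is described separately.

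Rhosin libraries held 11024585 to 11773921 counts and DMSO libraries 9722069 to 14153796. The first principal component, 32.8% of the variance over the 9 RIVA libraries, placed the Rhosin libraries at 25.9 to 34.6 and the DMSO libraries at -27.7 to -11.3. The B-cell genes PAX5, TCF3, RHOH and IRF4 had at least 6602 counts in every library. VAV1, TLR10, CD72 and LY86 had fewer, with LY86 at 469 to 819. Of 14 markers of other cell types 5 were at 0 in all 6 libraries, but the epithelial genes AQP3 and CRB3 reached 545 and 338 counts. Summed over these 14, which hold T-cell, myeloid, epithelial and endothelial genes, the level was 73.9 to 107.6 CPM (counts scaled to library size) with Rhosin and 57.4 to 75.7 CPM in DMSO. The part of these differences in the results was not tested.

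DMSO replicate 3 stood apart from the other 8 RIVA libraries, at -30.6 on the second component, and held rows typical of TMD8. A set of 10 rows lay under 1 CPM in the other 8 RIVA libraries and in all HBL1 libraries and at 20 CPM or more in every TMD8 library. These rows summed to 96.3 CPM in DMSO replicate 3, which is 9.52% of their summed TMD8 mean of 1011 CPM. In the other RIVA libraries they reached 0.125% to 0.265% of it. The share ranged from 3.44% to 14.1% between the 10 rows, and SLC1A1, a glutamate transporter and the only level-checked one, was at 11.4%. By contrast, 16 rows typical of HBL1 came to 0.0775% to 0.192% of their HBL1 level over the 9 RIVA libraries. Genes far higher in TMD8 showed the same in this library. TPM2 had an excess over DMSO replicates 1 and 2 equal to 8.45% of its TMD8 DMSO level, NKD2 to 8.24% and CNN2 to 7.59%. How these reads came into the library was not tested. Results that rest on this library are given with and without it below, a choice made after the data were seen, and the 2 remaining DMSO libraries then stand for the group.

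With Rhosin 1000 rows rose and 1008 fell at an adjusted p under 0.05 (edgeR's quasi-likelihood test with Benjamini-Hochberg adjustment over all rows tested), 16.8% of 11956 tested, 8.36% higher and 8.43% lower. Among the level-checked genes 69 rose and 91 fell, 27.2% of 589 (11.7% higher and 15.4% lower), with a median log2 change over all 589 of -0.03. Changes were mostly small. The median size of the called changes was 0.56 on the log2 scale for genes, and 22 of 160 genes passed 2-fold, 14 higher and 8 lower. No overlap between the 3 Rhosin and the 3 DMSO values was seen in 67 of the 69 genes that rose and 90 of the 91 that fell, where 19.4% and 21.4% of all level-checked genes stood apart upward and downward. Without DMSO replicate 3, 722 rows rose and 757 fell, 12% of 12339, and 55 genes rose and 71 fell, 21.1% of 597. Of the 160 genes, 52 again rose and 70 again fell, and all 160 kept their direction. With DMSO replicate 1 left out 1113 rows passed, with Rhosin replicate 2 left out 1138 rows and 98 genes, and with Rhosin replicate 3 left out 1277 rows.

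**Figure D1:**
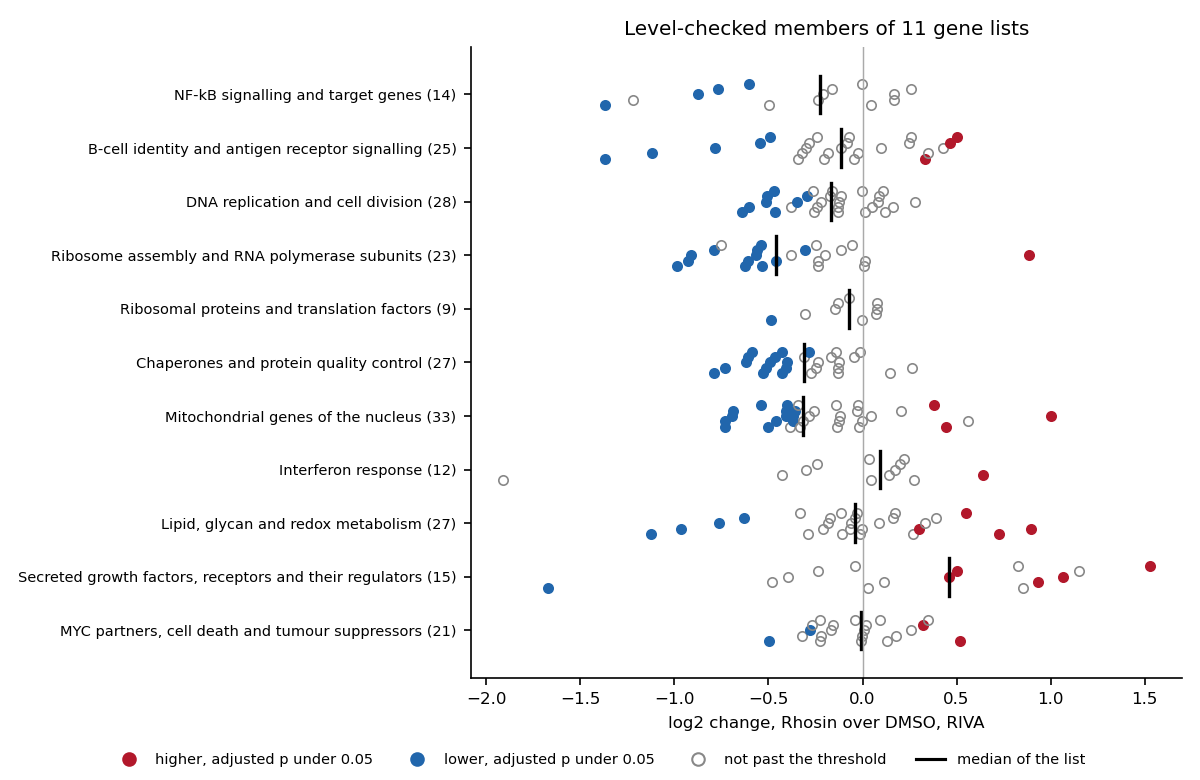
Log2 change (x axis, Rhosin over DMSO in RIVA) of each level-checked gene in 11 gene lists (rows, number tested in parentheses), with all 6 libraries; filled points passed an adjusted p of 0.05, red higher and blue lower, and bars mark list medians. The medians of ribosome assembly (-0.46), mitochondrial genes (-0.31) and chaperones (-0.31) lay to the left, and that of secreted factors (0.46) to the right.

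IRF4 and CD83, targets of NF-kB, fell with Rhosin. IRF4, a target of NF-kB and a transcription factor on which this lymphoma type depends, had 738, 920 and 893 CPM with Rhosin, against 1865, 1875 and 2842 CPM in DMSO. The groups did not overlap, and DMSO replicate 3 was the highest. The log2 change of IRF4 was -1.37 (SE 0.154, adjusted p = 0.000124), or -1.15 (SE 0.109, adjusted p = 8.44e-05) without that library. IRF4 lies on chromosome 6 from 391739 to 411447 (GRCh38).

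CD83, a surface marker of B-cell activation and an NF-kB target, had 263, 183 and 253 CPM with Rhosin, against 705, 499 and 605 CPM in DMSO. Every Rhosin library lay well below every DMSO library. It fell by 1.37 (SE 0.167, adjusted p = 0.000212), and by 1.38 (SE 0.184, adjusted p = 0.000715) without DMSO replicate 3. Its second RefSeq promoter, at chr6:14117522-14117821 (GRCh38.p14, plus strand), is shown because it held 6 matches, some of them overlapping, to the kB consensus, the site that NF-kB binds, from 134 to 50 bases before the first base of the gene. The other CD83 promoter entry, at chr6:14117006-14117305, held none. The matches are in capitals, the window runs from 250 bases before to 50 after the start, and both strands were searched.
CD83: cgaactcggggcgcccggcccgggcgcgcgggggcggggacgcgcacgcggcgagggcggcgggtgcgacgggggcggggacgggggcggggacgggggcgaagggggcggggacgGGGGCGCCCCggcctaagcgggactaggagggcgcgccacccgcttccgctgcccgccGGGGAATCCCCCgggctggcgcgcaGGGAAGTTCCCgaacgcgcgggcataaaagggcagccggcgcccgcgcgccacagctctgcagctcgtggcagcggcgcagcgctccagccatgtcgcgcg
At least 1 match occurred in 11.3% of 35116 RefSeq promoters of that length and in 13.3% of 504 level-checked genes tested. It was found in 2 of the 12 tested NF-kB list members with a promoter entry, and CD83 is not among these 12. The GADD45B promoter held it, and those of IRF4 and TNFSF9 did not. A match is a description of letters, not a measured site.

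In either direction 28.6% of the list of NF-kB signalling and target genes were called, against 27.2% of all level-checked genes, with a median of -0.23. Of its 14 tested members 4 fell and none rose, where 15.4% of all level-checked genes fell and 11.7% rose. The others that fell were TNFSF9, a costimulatory ligand of the TNF family, by 0.88 (SE 0.138, adjusted p = 0.00105), GADD45B, an NF-kB target in the stress response, by 0.77 (SE 0.149, adjusted p = 0.00392), and CD70, the ligand of CD27, by 0.60 (SE 0.183, adjusted p = 0.038). TNFSF9 had 24.8, 28.9 and 24.0 CPM with Rhosin, against 44.1, 50.9 and 47.97 CPM in DMSO, with no overlap. Without DMSO replicate 3 the list had 3 lower members of 14, GADD45B fell by 0.63 and CD70 was at -0.43 with an adjusted p of 0.133. CD70 also missed the threshold without Rhosin replicate 1 (-0.50), Rhosin replicate 2 (-0.70), Rhosin replicate 3 (-0.61) or DMSO replicate 2 (-0.64). CD274, an immune checkpoint ligand with a name checked in TMD8 only, had 9.38, 7.73 and 9.70 CPM with Rhosin, against 9.66, 7.15 and 47.0 CPM in DMSO. Its change of -1.22 (adjusted p = 0.122) became 0.07 without DMSO replicate 3. OTULIN, SERPINB9 and TRIM38 were at -0.21, -0.16 and 0.04 and did not pass.

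Of 25 B-cell and antigen receptor genes 3 rose and 5 fell (32%, against 27.2% of all level-checked genes), with a median of -0.11. CD72, an inhibitory co-receptor of the B-cell receptor, had 60.0, 55.9 and 51.2 CPM with Rhosin, against 106, 112 and 146 CPM in DMSO, and fell by 1.12 (SE 0.131, adjusted p = 0.000161). PAX5, the transcription factor that maintains B-cell identity, had 3337, 3654 and 3125 CPM with Rhosin, against 4800, 4365 and 5061 CPM in DMSO, and fell by 0.49 (SE 0.091, adjusted p = 0.003). In both genes all Rhosin libraries lay below all DMSO libraries. TLR10, a Toll-like receptor of B cells, fell by 0.79 (SE 0.144, adjusted p = 0.00277), with 71.3, 64.4 and 88.9 CPM in Rhosin libraries and 133, 144 and 109 CPM in DMSO libraries.

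The B-cell members that rose were RHOH, STIM2 and PIP5K1C. RHOH, a protein of blood cells that acts in antigen receptor signalling, had 889, 968 and 988 CPM with Rhosin, against 653, 686 and 726 CPM in DMSO, and rose by 0.46 (SE 0.087, adjusted p = 0.00339). STIM2, a calcium sensor of the endoplasmic reticulum, rose by 0.50 (SE 0.098, adjusted p = 0.00406). PIP5K1C, which makes the phosphoinositide PIP2, was at 0.33 (adjusted p = 0.0401) and at 0.25 to 0.38 when any 1 of the 6 libraries was left out, none of these past the threshold. The list had 2 higher and 4 lower members without DMSO replicate 3, where CD72 fell by 0.98, PAX5 by 0.45 and TLR10 by 0.90, RHOH rose by 0.49 and STIM2 by 0.43. CD38, DOCK8 and TCF3, markers of B-cell state, an exchange factor and an early B-cell factor, were at -0.21, -0.03 and 0.25 without passing, and CD38 has a name checked in TMD8 only.

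Genes that act on actin filaments and cell adhesion changed in both directions. NEDD9, a docking protein of integrin and B-cell receptor signalling, had 42.5, 37.1 and 36.9 CPM with Rhosin, against 79.8, 58.0 and 82.3 CPM in DMSO. It fell by 0.92 (SE 0.132, adjusted p = 0.000607). WDR1, which speeds actin filament disassembly by cofilin, had 499, 497 and 514 CPM with Rhosin, against 717, 659 and 735 CPM in DMSO, and fell by 0.48 (SE 0.083, adjusted p = 0.00183). PHACTR1, which binds actin monomers and protein phosphatase 1, fell by 0.43 (SE 0.094, adjusted p = 0.00785). None of these overlapped between groups, and without DMSO replicate 3 they fell by 0.84, 0.46 and 0.51.

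**Figure D2:**
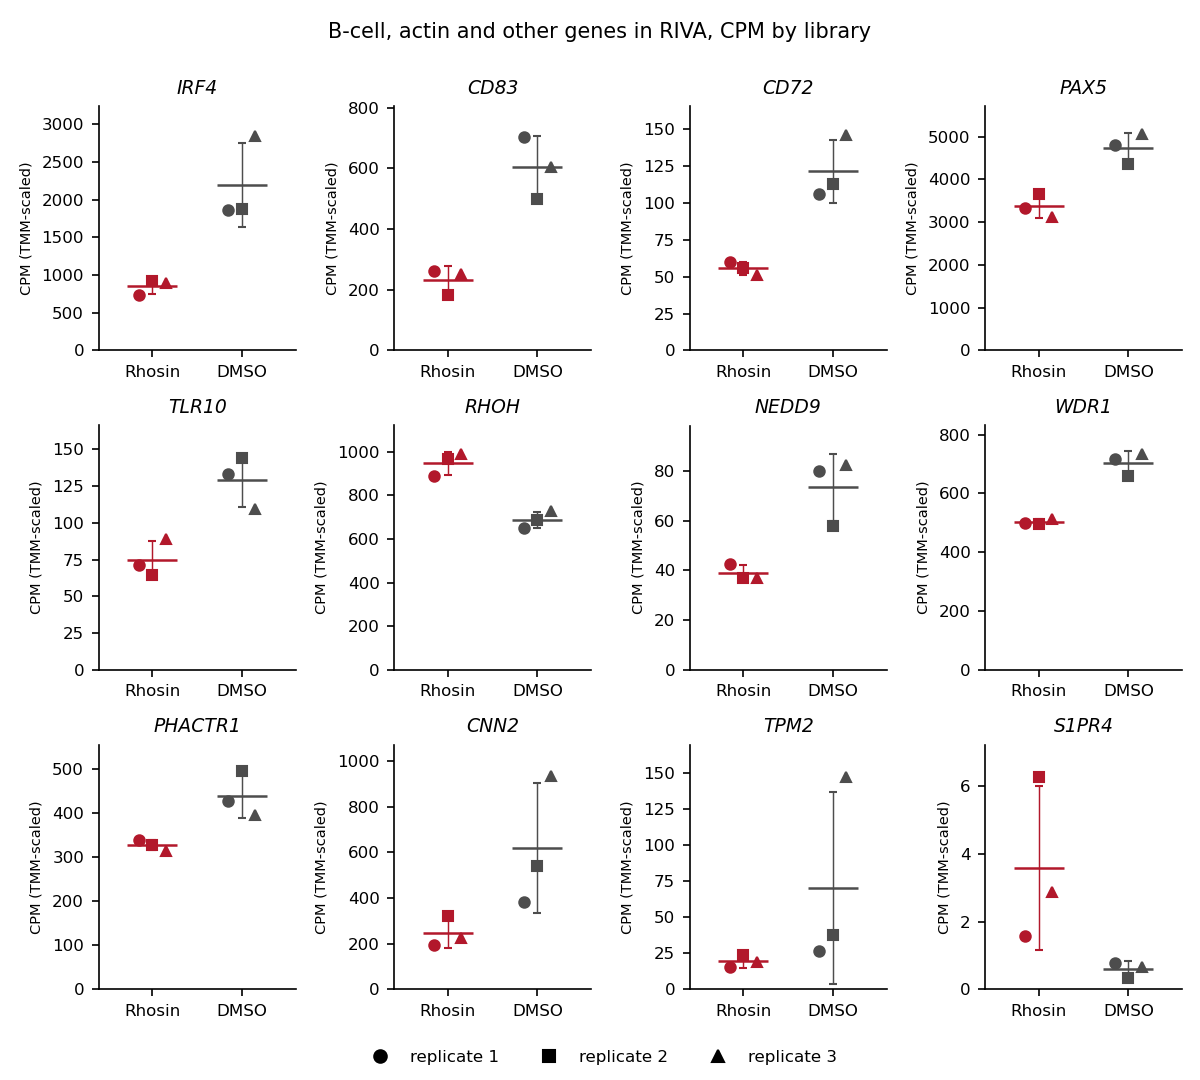
CPM by library (y axis from 0) for 12 genes in Rhosin (red) and DMSO (grey) libraries of RIVA, with symbols for the replicate, a line at the mean and bars of 1 SD (n = 3). Rhosin values lie below DMSO values for IRF4, CD83, CD72, PAX5, TLR10, NEDD9, WDR1, PHACTR1, CNN2 and TPM2 and above them for RHOH and S1PR4; DMSO replicate 3, which held TMD8 rows, sets the spread of TPM2 and CNN2.

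The actin-binding proteins CNN2, a calponin, and TPM2, a tropomyosin, were highest in DMSO replicate 3, and both names were checked in TMD8 only. CNN2 had 194, 319 and 223 CPM with Rhosin, against 384, 541 and 936 CPM in DMSO, and fell by 1.34 (SE 0.287, adjusted p = 0.00695). Leaving out that library, it fell by 0.93 (SE 0.234, adjusted p = 0.0215). TPM2 had 15.1, 23.7 and 19.1 CPM with Rhosin, against 26.7, 37.3 and 147 CPM in DMSO, and fell by 1.85 (SE 0.492, adjusted p = 0.0212). Its change was -0.74 without DMSO replicate 3, with an adjusted p of 0.0747, and without Rhosin replicate 1 or 3 it was -1.71 or -1.83, also short of the threshold. Here TMD8 DMSO cells averaged 5779 CPM of CNN2 and 1283 CPM of TPM2. The CNN2 promoter, at chr19:1026358-1026657 (GRCh38.p14, plus strand), is shown because it held a match to the CArG box, the site of serum response factor, a regulator of actin genes.
CNN2: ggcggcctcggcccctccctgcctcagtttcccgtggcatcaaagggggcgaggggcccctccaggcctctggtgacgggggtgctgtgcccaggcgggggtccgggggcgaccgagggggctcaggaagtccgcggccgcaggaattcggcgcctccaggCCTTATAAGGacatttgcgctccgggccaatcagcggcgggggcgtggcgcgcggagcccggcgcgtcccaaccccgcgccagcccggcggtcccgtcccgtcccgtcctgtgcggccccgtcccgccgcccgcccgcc
The match, in capitals, starts 89 bases before the first base of the gene, and 1.29% of all 35116 promoters held one.

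VAV1, an exchange factor that acts below the antigen receptor, fell by 0.55 (SE 0.153, adjusted p = 0.0271). It was at -0.36 without DMSO replicate 3, -0.57 without Rhosin replicate 1 and -0.45 without Rhosin replicate 3, none past the threshold. Among genes that rose, ADD1, the adducin that caps actin filaments, was at 0.32 (adjusted p = 0.0236) and SPIRE1, an actin nucleator, at 0.40 (adjusted p = 0.0345). ADD1 kept its call without DMSO replicate 3 (0.32) and lost it without Rhosin replicate 2 (0.28), Rhosin replicate 3 (0.32) or DMSO replicate 1 (0.29). SPIRE1 kept it only without Rhosin replicate 1, was at 0.34 to 0.42 in the other 5 fits, and missed the threshold with no filter on low counts (0.41). S1PR4, a receptor for sphingosine 1-phosphate, had 1.58, 6.27 and 2.87 CPM with Rhosin, against 0.787, 0.345 and 0.660 CPM in DMSO. It had the largest rise among the 69 genes, 2.55 (SE 0.506, adjusted p = 0.00464; 2.59 without DMSO replicate 3), on few counts and with Rhosin replicate 2 the highest. Myosin and talin genes did not pass, with MYL12B at -0.23, MYL12A at -0.07 and TLN1 at -0.25, though MYL12B passed without Rhosin replicate 3 (-0.32).

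Ribosome assembly had the largest share of members called among the 13 lists, 1 higher and 12 lower of 23 (56.5%, against 27.2% of all level-checked genes), with a median of -0.46. Without DMSO replicate 3 it had 1 higher and 11 lower and a median of -0.38, and without Rhosin replicate 2 it had 7 lower. The list holds nucleolar assembly factors, RNA processing enzymes and RNA polymerase subunits, so its counts are not of ribosome factors alone. PUM3, a nucleolar RNA-binding protein, had 133, 94.6 and 129 CPM with Rhosin, against 273, 194 and 237 CPM in DMSO. It fell by 0.98 (SE 0.162, adjusted p = 0.00139), with no overlap. PAK1IP1, a nucleolar assembly factor, had 69.9, 44.8 and 69.3 CPM with Rhosin, against 131, 99.3 and 116 CPM in DMSO, and fell by 0.91 (SE 0.174, adjusted p = 0.00345). NOL6, of the complex that assembles the small subunit, had 453, 261 and 336 CPM with Rhosin, against 713, 435 and 852 CPM in DMSO, and fell by 0.93 (SE 0.219, adjusted p = 0.0118). NOL6 was the only member called whose groups overlapped, as Rhosin replicate 1 lay above DMSO replicate 2. The falls were 0.99 for PUM3, 0.92 for PAK1IP1 and 0.72 for NOL6 without DMSO replicate 3.

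The promoters of these 3 genes are shown because each holds CACGTG, the E-box that MYC and related factors bind, in capitals. They come from RefSeq (GRCh38.p14), PUM3 at chr9:2844046-2844345 on the minus strand, PAK1IP1 at chr6:10694722-10695021 on the plus strand and NOL6 at chr9:33473875-33474174 on the minus strand, each written in the gene's direction.
PUM3: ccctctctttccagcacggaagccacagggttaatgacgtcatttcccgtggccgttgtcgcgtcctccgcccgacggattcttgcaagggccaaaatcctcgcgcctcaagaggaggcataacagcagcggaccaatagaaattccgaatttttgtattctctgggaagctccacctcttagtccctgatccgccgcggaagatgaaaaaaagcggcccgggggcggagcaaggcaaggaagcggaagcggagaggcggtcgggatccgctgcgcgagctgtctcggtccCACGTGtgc
PAK1IP1: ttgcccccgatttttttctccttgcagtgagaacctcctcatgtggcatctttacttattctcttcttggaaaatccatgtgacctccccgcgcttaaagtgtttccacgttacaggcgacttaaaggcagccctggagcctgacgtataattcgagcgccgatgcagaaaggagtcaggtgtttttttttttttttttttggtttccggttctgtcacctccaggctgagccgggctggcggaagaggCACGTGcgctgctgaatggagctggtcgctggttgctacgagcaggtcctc
NOL6: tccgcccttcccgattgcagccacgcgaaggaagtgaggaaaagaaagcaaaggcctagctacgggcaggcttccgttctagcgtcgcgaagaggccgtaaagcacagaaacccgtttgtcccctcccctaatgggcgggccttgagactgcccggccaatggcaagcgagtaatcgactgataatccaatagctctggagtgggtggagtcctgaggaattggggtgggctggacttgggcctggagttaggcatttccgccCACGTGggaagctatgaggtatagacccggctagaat
Counted from 0 at the first base of the gene, the E-box starts at 41 in PUM3, -1 in PAK1IP1 and 13 in NOL6. CACGTG, which reads the same on both strands, occurred in 5 of 10 members of the list that fell and have a promoter entry, and in 5 of 20 members tested. Its share was 11.1% of the level-checked genes tested and 7.26% of all promoters.

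Other members that fell were BRIX1, of the large subunit (-0.79, SE 0.150), RCL1, of small-subunit RNA processing (-0.62, SE 0.151), POLR1E, a subunit of RNA polymerase I (-0.61, SE 0.101), NOL7, a nucleolar protein (-0.57, SE 0.090), and EXOSC3, of the RNA exosome (-0.46, SE 0.087). RIOK1, NSUN2, DUS3L and ABT1 fell by 0.56, 0.54, 0.54 and 0.31. RIOK1 missed the threshold without DMSO replicate 3 (-0.59, adjusted p = 0.0526). NSUN7, which resembles RNA methyltransferases, rose by 0.88 (SE 0.211, adjusted p = 0.0125), with 4.47, 4.64 and 5.31 CPM in Rhosin libraries and 2.72, 2.24 and 2.86 CPM in DMSO libraries. Ribosomal proteins and translation factors stood apart from this list only as counts, since the lists were not tested against each other. RPS6 had 7962, 7597 and 8358 CPM with Rhosin, against 7313, 7890 and 8770 CPM in DMSO, and RPLP2 and EEF2 were at 0.07 and 0.08, none past the threshold. Of 9 such genes 1 fell, OAZ1, an inhibitor of polyamine synthesis listed with them, by 0.49 (adjusted p = 0.0426). OAZ1 was at -0.29 with DMSO replicate 3 left out and at -0.45, -0.56 and -0.45 with Rhosin replicate 1, 2 or 3 left out, none of these past it.

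**Figure D3:**
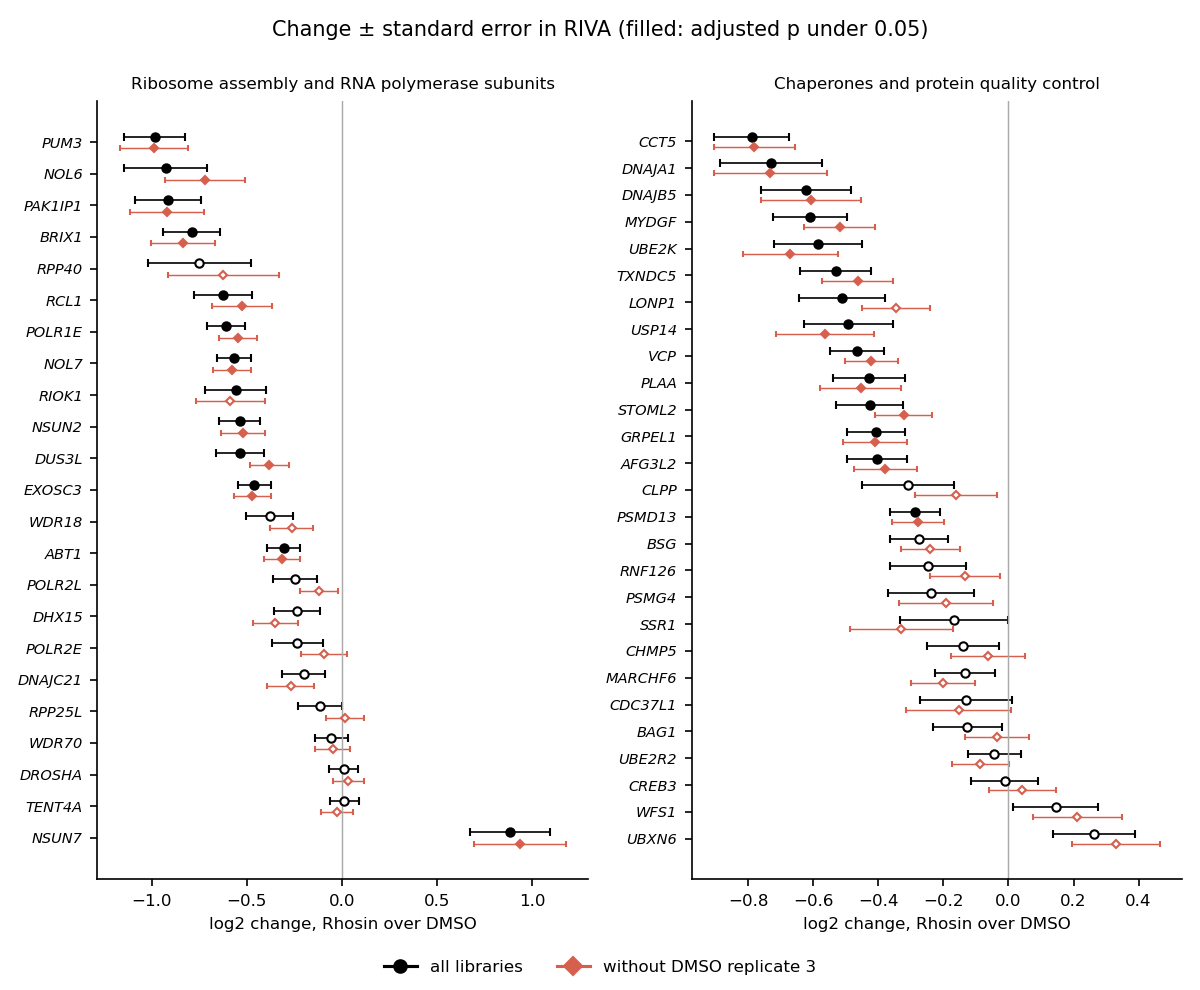
Log2 change ± SE (x axis, Rhosin over DMSO in RIVA) of every tested member of the ribosome assembly list (left) and the chaperone list (right), with all libraries (black circles) and without DMSO replicate 3 (red diamonds); filled symbols passed an adjusted p of 0.05. Of the 23 members on the left 20 lie below 0, from PUM3 at -0.98, and of the 27 on the right 25, from CCT5 at -0.79.

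Of the chaperones and protein quality control genes, 14 of 27 fell and none rose, where 15.4% of all level-checked genes fell and 11.7% rose. In either direction 51.9% were called, against 27.2% of all level-checked genes, with a list median of -0.31. CCT5, a subunit of the TRiC chaperonin that folds actin and tubulin, had 915, 689 and 788 CPM with Rhosin, against 1523, 1195 and 1413 CPM in DMSO. It fell by 0.79 (SE 0.115, adjusted p = 0.00066), with every Rhosin library below every DMSO library. DNAJA1, a co-chaperone of HSP70, fell by 0.73 (SE 0.157, adjusted p = 0.00714), with 1111, 708 and 863 CPM in Rhosin libraries and 1708, 1239 and 1503 CPM in DMSO libraries. VCP, which extracts ubiquitinated proteins, had 1433, 1422 and 1384 CPM with Rhosin, against 1907, 1845 and 2101 CPM in DMSO, and fell by 0.47 (SE 0.084, adjusted p = 0.00259). MYDGF, TXNDC5 and GRPEL1, a secreted factor, a disulfide isomerase and a mitochondrial co-chaperone, fell by 0.61, 0.53 and 0.41. TXNDC5 can share reads with a readthrough gene on the same strand. BSG, MARCHF6 and UBE2R2 were at -0.28, -0.13 and -0.04 and did not pass, though BSG passed with RLE scaling (-0.28, adjusted p = 0.0459), in DESeq2 (-0.28, adjusted p = 0.0335) and without DMSO replicate 2 (-0.31, adjusted p = 0.0452). The list had 13 lower members without DMSO replicate 3 and 9 without Rhosin replicate 2.

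Of 33 nuclear genes of mitochondria 3 rose and 13 fell (48.5%, against 27.2% of all level-checked genes), with a median of -0.31, and 17 did not pass. Leaving out Rhosin replicate 1 gave 2 higher and 9 lower, Rhosin replicate 2 gave 2 and 7, Rhosin replicate 3 gave 1 and 9, DMSO replicate 1 gave 1 and 7, and DMSO replicate 2 gave 2 and 13. Without DMSO replicate 3 they were 1 and 9 with a median of -0.15, against 21.1% of all level-checked genes called. TOMM5, of the outer membrane import pore, had 81.0, 61.9 and 71.9 CPM with Rhosin, against 116, 94.99 and 135 CPM in DMSO, and fell by 0.69 (SE 0.129, adjusted p = 0.00319; 0.57 without DMSO replicate 3). LAP3, a peptidase, fell by 0.73 (SE 0.107, adjusted p = 0.000674), and the complex I subunit NDUFB6 by 0.46 (SE 0.100, adjusted p = 0.00752). ALDH1B1, an aldehyde dehydrogenase, fell by 0.69, or by 0.51 without DMSO replicate 3, and LYRM4, of iron-sulfur cluster assembly, by 0.40. ATP5F1D, SDHA and AK3 were at -0.38, -0.13 and -0.12 without passing, though ATP5F1D passed with no filter on low counts (-0.37).

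ALDH5A1, the enzyme that clears succinic semialdehyde, went the other way and had an adjusted p among the lowest. It had 3300, 3828 and 4011 CPM with Rhosin, against 1832, 2015 and 1706 CPM in DMSO, and rose by 1.00 (SE 0.097, adjusted p = 4.4e-05). The groups were far apart, and without DMSO replicate 3 the rise was 0.94. GPLD1, whose exons overlap those of ALDH5A1 on the other strand, rose by 0.73 (SE 0.111, adjusted p = 0.000893). The 2 names were checked in TMD8 only, and whether the counting used strand is not given in the sources used here, so their reads cannot be told apart. SIRT3 and SIRT5, mitochondrial deacylases, were at 0.38 and 0.44 (adjusted p = 0.039 and 0.0247) and missed the threshold without DMSO replicate 3, at 0.40 and 0.34. SIRT3 overlaps PSMD13 on the other strand.

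In DNA replication and cell division 8 of 28 genes fell and none rose, where 15.4% of all level-checked genes fell and 11.7% rose. In either direction 28.6% were called, against 27.2% of all level-checked genes, with a list median of -0.17. TRIP13, an ATPase of the spindle checkpoint, had 73.9, 70.8 and 80.1 CPM with Rhosin, against 112, 108 and 121 CPM in DMSO, and fell by 0.60 (SE 0.089, adjusted p = 0.000723). Rhosin and DMSO values lay clearly apart. TERT, the telomerase reverse transcriptase, fell by 0.51 (SE 0.106), GMNN, which limits replication licensing, by 0.51 (SE 0.113), the lamin LMNB2 by 0.64 (SE 0.133) and the nuclear pore genes NUP155 and NUP153 by 0.47 each. LMNB2 fell by 0.44 without DMSO replicate 3 and shares exonic sequence with TIMM13 on the same strand, and NUP153 missed the threshold without DMSO replicate 1 (-0.37, adjusted p = 0.056). NSD2, SMCHD1 and DEK were at 0.08, -0.26 and -0.26 and did not pass. The list had 7 lower members without DMSO replicate 3 and 5 without DMSO replicate 1.

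Genes of sugar and lipid metabolism held the falls of lowest adjusted p, within a list of 4 higher and 4 lower of 27 (29.6%, against the same 27.2%), with a median of -0.04. GMDS, which makes the precursor of GDP-fucose, had 91.6, 89.5 and 83.2 CPM with Rhosin, against 178, 161 and 178 CPM in DMSO, and fell by 0.97 (SE 0.086, adjusted p = 3.21e-05). GCNT2, which branches poly-N-acetyllactosamine chains, had 48.1, 58.1 and 56.5 CPM with Rhosin, against 120, 113 and 122 CPM in DMSO, and fell by 1.12 (SE 0.110, adjusted p = 5.17e-05). In both, DMSO levels were about as tight as Rhosin levels and far above them. LPCAT1, which remodels phosphatidylcholine, fell by 0.76 (SE 0.114) and the sugar phosphate mutase PGM2 by 0.63 (SE 0.105). PNPLA2, the main triglyceride lipase, rose by 0.90 (SE 0.183, adjusted p = 0.0053), with 479, 688 and 591 CPM in Rhosin libraries and 243, 355 and 348 CPM in DMSO libraries. Without DMSO replicate 3 these changes were -0.96, -1.12, -0.63, -0.71 and 0.96, and the list had 3 higher and 4 lower members. GPX4, TALDO1 and STK11 were at -0.33, -0.11 and -0.01 and did not pass, though GPX4 passed with no filter on low counts (-0.32).

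Secreted factors and receptors had the highest median, 0.46, with 5 higher and 1 lower of 15 (40%, against 27.2% of all level-checked genes), or 4 and 1 without DMSO replicate 3. The member that fell was BMP6, a ligand of the TGF-beta superfamily with a name checked in TMD8 only. It had 8.59, 7.47 and 10.5 CPM with Rhosin, against 29.2, 24.4 and 31.2 CPM in DMSO, and fell by 1.67 (SE 0.170, adjusted p = 6.73e-05; 1.61 without DMSO replicate 3). IL11RA, the receptor of interleukin 11, rose by 0.94 (SE 0.141, adjusted p = 0.000809), with 31.0, 27.302 and 28.9 CPM in Rhosin libraries and 15.9, 17.3 and 12.2 CPM in DMSO libraries. Neither gene's groups overlapped. HCN2, a pacemaker channel, rose by 1.07 (SE 0.228, adjusted p = 0.00684), ANO9, of the anoctamin family, by 0.46 (SE 0.087, adjusted p = 0.00325) and EFNA2, an ephrin ligand, by 1.53 (SE 0.359, adjusted p = 0.0116). EFNA2 lay at 1.40 to 3.09 CPM with Rhosin and missed the threshold without Rhosin replicate 2 (1.19, adjusted p = 0.0689). TSPAN4, a tetraspanin, was at 0.50 (adjusted p = 0.0423) and missed it without DMSO replicate 3 (0.52), Rhosin replicate 2 (0.38), Rhosin replicate 3 (0.49) or DMSO replicate 1 (0.40). CD151, LRPAP1 and TGIF1 were at -0.40, 0.12 and 0.03 and did not pass, though CD151 passed with no filter on low counts (-0.39).

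Interferon response genes had 1 higher member of 12 (8.33%, against 27.2% of all level-checked genes), BTN1A1, a butyrophilin with a name checked in TMD8 only, at 0.64 (adjusted p = 0.012; 0.61 without DMSO replicate 3). It missed the threshold without Rhosin replicate 1 (0.53) or Rhosin replicate 3 (0.57). BTN3A2, TRIM38 and BTN2A1 were at 0.28, 0.04 and 0.03. BTN3A2 passed without DMSO replicate 2 (0.33), with scaling on the segment rows (0.30) or without the rows labelled mitochondrial (0.28), and with a stricter filter on low counts (0.28). Among 21 MYC partners and cell death genes 2 rose and 2 fell (19%, against the same 27.2%), also without DMSO replicate 3. The counts were 1 and 1 without Rhosin replicate 1, and 0 and 1 without Rhosin replicate 2 or DMSO replicate 1. KLF16, a Krüppel-like repressor, fell by 0.50 (SE 0.112, adjusted p = 0.00918) and DAP, a regulator of autophagy, by 0.28 (adjusted p = 0.0315), while MXD4, a MYC antagonist with a name checked in TMD8 only, rose by 0.52 (adjusted p = 0.0158) and KDM4C, a histone demethylase, by 0.32 (adjusted p = 0.0385). MXD4 was at 0.44 and missed the threshold without Rhosin replicate 2 or DMSO replicate 1. DAP and KDM4C missed it in 4 and 5 of the 6 fits that left out 1 library, at -0.29 to -0.25 and 0.25 to 0.35 in these, and DAP also with no filter on low counts (-0.27). Of the 5 markers of other cell types tested, DSP, the desmosome protein desmoplakin, rose (20%, against 27.2% of all level-checked genes). AQP3, a marker with a name checked in TMD8 only, did not pass in the main fit. It passed with a term for the replicate number (0.45, adjusted p = 0.0164) and with no filter on low counts (0.47, adjusted p = 0.016).

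Further large rises were of the following genes. NLRP6, an inflammasome sensor, had 2.19, 4.46 and 2.28 CPM with Rhosin, against 0.715, 0.776 and 0.880 CPM in DMSO, and rose by 1.92 (SE 0.370, adjusted p = 0.00385). LINGO3, a leucine-rich repeat membrane protein, had 16.1, 20.2 and 19.5 CPM with Rhosin, against 5.01, 8.10 and 8.47 CPM in DMSO, and rose by 1.39 (SE 0.217, adjusted p = 0.00102). DSP had 8.07, 12.1 and 10.96 CPM with Rhosin, against 5.22, 4.65 and 4.51 CPM in DMSO, and rose by 1.11 (SE 0.194, adjusted p = 0.0021). No DMSO library reached the lowest Rhosin library of these 3 genes. MADCAM1, a mucosal adhesion ligand, DOK7, an adaptor of the muscle synapse, MUC6, a secreted mucin, JSRP1, LMNTD2 and KIAA0319 rose by 1.52, 1.52, 1.41, 1.29, 1.15 and 1.04. Left-out libraries ended the call of MADCAM1 (Rhosin replicate 2, 1.45; DMSO replicate 1, 1.14), DOK7 (DMSO replicate 1, 1.36), LMNTD2 (Rhosin replicate 2, 0.88) and JSRP1 (DMSO replicate 3, 1.32; DMSO replicate 1, 0.91; Rhosin replicate 2, 1.14; Rhosin replicate 3, 1.2). JSRP1 overlaps OAZ1 on the other strand. RANBP3L, of the Ran-binding protein family, lay under 3 CPM in every library and rose by 1.85, or was at 1.72 (adjusted p = 0.0546) without DMSO replicate 3.

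Among the largest falls not yet described were NKD2 and PDZD2, both with names checked in TMD8 only. PDZD2, a PDZ domain protein, had 64.5, 76.6 and 71.3 CPM with Rhosin, against 131, 150 and 151 CPM in DMSO, and fell by 1.02 (SE 0.111, adjusted p = 0.000103; 1.0 without DMSO replicate 3). NKD2, an inhibitor of Wnt signalling, had 16.2, 14.8 and 12 CPM with Rhosin, against 16.5, 20.9 and 54.0 CPM in DMSO, and was at -1.07 (SE 0.339, adjusted p = 0.0449). Its change was -0.39 (adjusted p = 0.189) without DMSO replicate 3, and TMD8 DMSO cells averaged 402 CPM. It also missed the threshold without Rhosin replicate 1 (-1.2), 2 (-1.09) or 3 (-0.95), in DESeq2 (-1.09) and with the 6 libraries alone (-1.06).

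More rows passed with Rhosin than with ibrutinib, which shares the DMSO libraries. Ibrutinib against DMSO gave 48 higher rows (0.401%) and 61 lower (0.51%), 0.912% in all, and 4 higher genes (0.679%) and 10 lower (1.7%), 2.38% in all, or 59 rows and 10 genes without DMSO replicate 3. The direct comparison sets the drug groups against each other, but the DMSO libraries still entered its filter, scaling and estimate of the spread. It was not refitted without DMSO replicate 3. It gave 555 rows higher and 543 lower with Rhosin than with ibrutinib (4.64% and 4.54%, 9.18% in all), and 49 genes higher and 47 lower (8.32% and 7.98%, 16.3% in all). It came to 380 rows and 28 genes without ibrutinib replicate 3, 469 and 42 without Rhosin replicate 2, and 470 and 39 without Rhosin replicate 3, and to 717 rows without ibrutinib replicate 1.

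For IRF4, CD83, GADD45B and BMP6 no difference between the drugs passed the test. IRF4 had 738, 920 and 893 CPM with Rhosin and 725, 886 and 849 CPM with ibrutinib, a difference of 0.05 (SE 0.151, adjusted p = 0.869). CD83 had 263, 183 and 253 CPM with Rhosin and 270, 192 and 197 CPM with ibrutinib, a difference of 0.09 (SE 0.165, adjusted p = 0.798). BMP6 differed by -0.27 (SE 0.176, adjusted p = 0.385) and GADD45B by 0.28 (SE 0.153, adjusted p = 0.281). Rhosin and ibrutinib values overlapped for IRF4, CD83 and BMP6 and not for GADD45B, and these tests do not show equal levels. TNFSF9, with 24.8, 28.9 and 24.0 CPM in Rhosin libraries and 37.2, 49.0 and 35.1 CPM in ibrutinib libraries, was lower with Rhosin by a difference of -0.64 (SE 0.138, adjusted p = 0.0133). Against DMSO, ibrutinib gave -1.42 for IRF4, -1.46 for CD83, -1.40 for BMP6 and -1.05 for GADD45B, all past the threshold with and without DMSO replicate 3.

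Among the named genes, CD72, PAX5, TLR10, PUM3 and GMDS were lower with Rhosin than with ibrutinib. CD72 had 60.0, 55.9 and 51.2 CPM with Rhosin, against 90.1, 109 and 88.1 CPM with ibrutinib, a difference of -0.78 (SE 0.131, adjusted p = 0.00352). PAX5 differed by -0.60 (SE 0.091, adjusted p = 0.00259), TLR10 by -0.77 (SE 0.144, adjusted p = 0.00675), PUM3 by -0.78 (SE 0.162, adjusted p = 0.0111) and GMDS by -0.92 (SE 0.086, adjusted p = 0.000149). GMDS had 170, 170 and 160 CPM with ibrutinib. CNN2 differed by -0.97 (SE 0.285, adjusted p = 0.0493), a call lost without Rhosin replicate 1 (-0.82), Rhosin replicate 3 (-0.91), ibrutinib replicate 2 (-0.73) or ibrutinib replicate 3 (-1.0) and in DESeq2 (-0.97, adjusted p = 0.108).

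Higher with Rhosin than with ibrutinib by the largest folds were genes near the detection limit. RANBP3L differed by 1.96 (SE 0.492), S1PR4 by 1.85 (SE 0.472), JSRP1 by 1.53 (SE 0.406), EFNA2 by 1.5 (SE 0.362) and FSD1 by 1.34 (SE 0.297), with adjusted p of 0.0145 to 0.0335. Each lost its call when single libraries were left out. The values then were 1.54 to 2.19 for RANBP3L (Rhosin replicate 2 or 3, ibrutinib replicate 2 or 3), 1.2 to 2.12 for S1PR4 (Rhosin replicate 2 or 3, any ibrutinib replicate), 1.16 to 1.51 for JSRP1 and 1.16 to 1.56 for EFNA2 (Rhosin replicate 2 or 3, ibrutinib replicate 1 or 3), and 1.2 to 1.27 for FSD1 (Rhosin replicate 2, ibrutinib replicate 1 or 3). SPIRE1 had 28.6, 31.0 and 33.6 CPM with Rhosin, against 13.5, 16.6 and 16.3 CPM with ibrutinib, a difference of 1.01 (SE 0.124, adjusted p = 0.000733) with no overlap. DMSO lay between them.

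**Figure D4:**
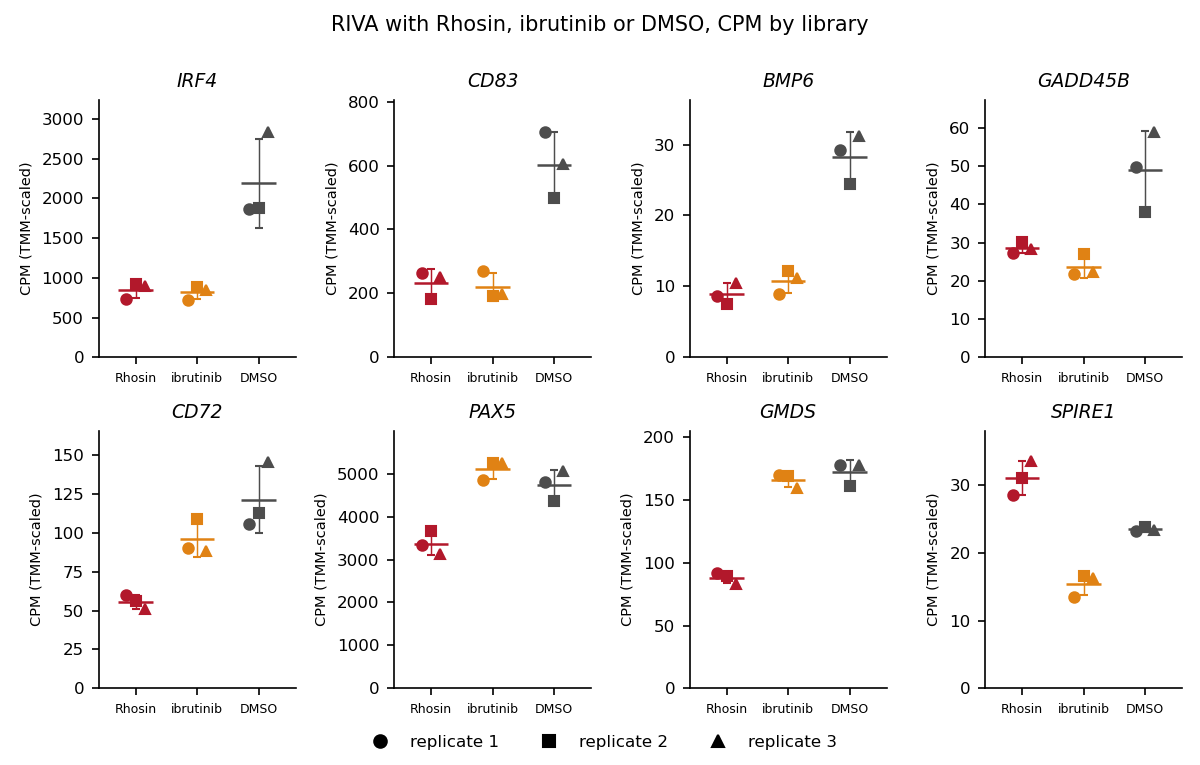
CPM by library (y axis from 0) of 8 genes in RIVA with Rhosin (red), ibrutinib (orange) or DMSO (grey), with symbols for the replicate, a line at the mean and bars of 1 SD (n = 3). Rhosin and ibrutinib values overlap for IRF4, CD83 and BMP6 and not for GADD45B, while CD72, PAX5 and GMDS are lower with Rhosin than with ibrutinib and SPIRE1 is higher.

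In the fit of all 27 drug libraries, Rhosin against DMSO passed in 37.3% of rows in TMD8 (21.6% higher, 15.7% lower) and in 5.26% in HBL1 (2.55% higher, 2.71% lower). Among 661 level-checked genes, 182 rose and 140 fell in TMD8 (27.5% and 21.2%, 48.7% in all) and 32 rose and 28 fell in HBL1 (4.84% and 4.24%, 9.08% in all). This fit had no term for the replicate number, although the HBL1 numbers were taken to pair. The HBL1 response alone was not refitted with such a term, so its shares may be too low and do not rank the lines. The difference between the responses themselves, RIVA minus TMD8, passed in 4.62% of rows upward and 7.1% downward (11.7% in all), and in 51 genes upward and 76 downward (7.72% and 11.5%, 19.2% in all), or 50 and 58 without DMSO replicate 3. The median of all rows in this test was -0.11. Of the 69 genes that rose in RIVA, 55 had the same sign in TMD8, 40 were also called higher there and 5 were called lower. Of the 91 that fell, 75 had the same sign in TMD8, 56 were also called lower and 10 were called higher. In HBL1, 58 of 69 and 81 of 91 had the same sign. The share of all level-checked genes with the same sign was not counted, so the same-sign counts are a description only. These counts include all 3 DMSO libraries of RIVA.

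For ribosome assembly the differences from TMD8 were upward, that is, smaller falls in RIVA. In TMD8 17 of 23 members fell (median -0.91), against 21.2% of all level-checked genes. In HBL1 7 fell (median -0.44), against 4.24%. The difference RIVA minus TMD8 passed in 10 members, all upward, against 7.72% of all genes. Without DMSO replicate 3 it passed in 8, all upward, against 7.55%. PUM3 changed by -1.94 in TMD8, BRIX1 by -1.74 and NOL6 by -2.00, and their differences were 0.96, 0.95 and 1.07 (adjusted p = 0.00603, 0.0117 and 0.0255). No member passed the test of the difference from HBL1, with or without a term for the replicate number. CD83 also fell less in RIVA than in TMD8, where it changed by -3.23, a difference of 1.86 (SE 0.467, adjusted p = 0.00967; 1.85 without DMSO replicate 3). CD83 was at -0.28 in HBL1, and the difference from HBL1 was -1.09 (SE 0.462, adjusted p = 0.415). It was -1.04 (adjusted p = 0.000315) with a term for the replicate number. With no filter on low counts it was -1.08 (SE 0.184, adjusted p = 2.83e-06). The unfiltered fit gave SLC1A1, whose difference from TMD8 rested on DMSO replicate 3 of RIVA, an adjusted p of 1.5e-69. Its p-values can thus understate the spread between libraries. IRF4 changed by -1.71 in TMD8 and -1.12 in HBL1, and neither difference passed (0.35, SE 0.296, and -0.24, SE 0.296).

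The difference from TMD8 passed downward in 10 of 26 B-cell genes and in 5 of 12 interferon genes, against 11.5% of all genes, and upward in 1 and none. Without DMSO replicate 3 it passed downward in 8 B-cell and 4 interferon genes, against 8.76% of all genes. In TMD8 alone 11 of 26 B-cell genes rose and 5 fell, and 7 of 12 interferon genes rose and none fell. Of all level-checked genes 27.5% rose and 21.2% fell there. CD72 is an example. In RIVA it had 57.6, 53.6 and 49.4 CPM with Rhosin, against 101, 110 and 138 CPM in DMSO, on the scale of the 27 libraries. In TMD8 it had 711, 655 and 540 CPM with Rhosin, against 231, 440 and 292 CPM in DMSO, and rose by 0.99 (adjusted p = 0.035). The responses differed by -2.11 (SE 0.523, adjusted p = 0.00876; -1.97 without DMSO replicate 3). In HBL1 replicate 2 stood apart, with 318, 644 and 290 CPM in Rhosin libraries and 259, 778 and 221 CPM in DMSO libraries, and the difference from HBL1 was -1.11 (SE 0.518, adjusted p = 0.486). It passed with a term for the replicate number (-1.25, adjusted p = 0.000291). With no filter on low counts it was -1.10 (SE 0.188, adjusted p = 3.16e-06), in the fit whose p-values can understate the spread. Without HBL1 DMSO replicate 2 it was -1.93 (adjusted p = 0.0308). That fit kept HBL1 Rhosin replicate 2 at 644 CPM, so it broke the pair that stood apart. PAX5 differed from TMD8 by -0.51 (adjusted p = 0.0337), a call lost without DMSO replicate 3 (-0.48), RIVA DMSO replicate 1 (-0.51), Rhosin replicate 1 (-0.51) or Rhosin replicate 3 (-0.45), without TMD8 Rhosin replicate 1 (-0.45), TMD8 DMSO replicate 1 (-0.44) or TMD8 DMSO replicate 3 (-0.46), and with RLE scaling (-0.46).

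**Figure D5:**
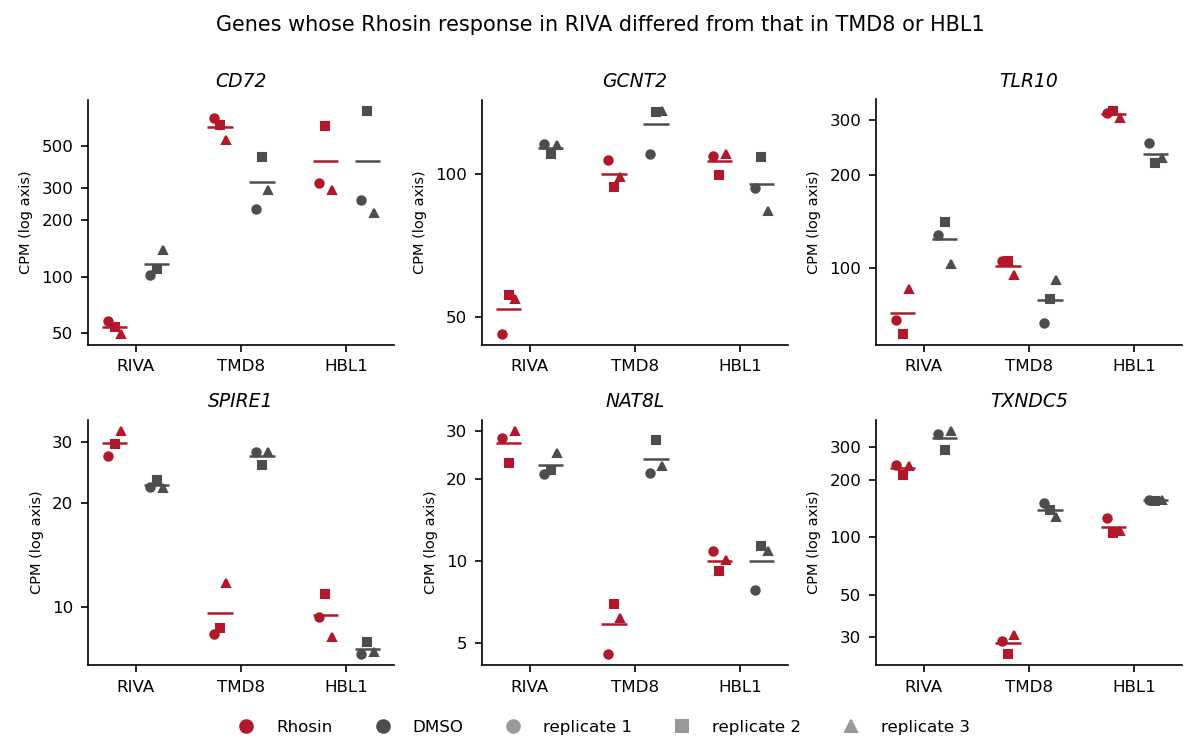
CPM by library (log y axis) of 6 genes in Rhosin (red) and DMSO (grey) libraries of RIVA, TMD8 and HBL1, with symbols for the replicate and a line at the mean (n = 3). CD72 and TLR10 are lower with Rhosin than in DMSO in RIVA and higher in TMD8, GCNT2 is lower in RIVA and close to DMSO in HBL1, and SPIRE1, NAT8L and TXNDC5 are lowest relative to DMSO in TMD8.

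Other differences from TMD8 were of both kinds. TXNDC5 fell by 0.53 in RIVA and changed by -2.33 in TMD8 (difference 1.80, SE 0.187, adjusted p = 1e-06), SPIRE1 by -1.53 in TMD8 (difference 1.93, SE 0.183) and NAT8L, which makes N-acetylaspartate, by -2.01 (difference 2.28, SE 0.251). The RIVA response was lower for SHB, an adaptor of tyrosine kinase signalling (-2.46, SE 0.271), PDZD2 (-2.39, SE 0.256) and the antisense RNA LY86-AS1 (-2.29, SE 0.233). In the same order these differences were 1.86, 1.91, 2.36, -2.37, -2.37 and -2.42 without DMSO replicate 3. SHB had 5.47, 3.95 and 3.01 CPM with Rhosin, against 4.46, 5.23 and 5.95 CPM in DMSO in RIVA, while TMD8 had 55.0, 41.1 and 46.0 CPM with Rhosin, against 12.1, 10.6 and 9.50 CPM in DMSO.

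Few differences between RIVA and HBL1 passed in the main fit, which has no term for the replicate number, and more passed with such a term. The test passed in 0.104% of rows upward and 0.369% downward (0.473% in all), and in 1 gene upward and 3 downward of 661 (0.151% and 0.454%, 0.605% in all), with 71 at an unadjusted p under 0.05, and in none upward and 4 downward without DMSO replicate 3. In HBL1 the replicate numbers deviated together, with correlations of 0.251, 0.483 and 0.194 between same-numbered libraries, and with a term for the replicate number in every line 11 genes passed upward and 42 downward (1.66% and 6.35%), among them 1 upward and 8 downward of 26 B-cell genes. With all libraries but 1, the count was 2 genes without RIVA Rhosin replicate 3 or HBL1 DMSO replicate 3, 6 without RIVA DMSO replicate 2, and 9 without RIVA DMSO replicate 1 or HBL1 DMSO replicate 2. GCNT2 fell in RIVA and was at 0.16 in HBL1, a difference of -1.28 (SE 0.16, adjusted p = 5.94e-05). TLR10 was at 0.43 in HBL1, with 315, 321 and 305 CPM in Rhosin libraries and 253, 219 and 226 CPM in DMSO libraries, and differed by -1.22 (SE 0.192, adjusted p = 0.00149). They were -1.28 and -1.34 without DMSO replicate 3. GMDS differed by -0.69 (SE 0.140, adjusted p = 0.0178) and LPIN2, a phosphatidate phosphatase, by 0.54 (SE 0.122, adjusted p = 0.0379). Leaving out 1 library ended the call of GMDS in 4 fits, at -0.67 to -0.62 (RIVA Rhosin replicate 3, HBL1 Rhosin replicate 1, HBL1 DMSO replicate 1 or 3). It ended that of LPIN2 in 9, at 0.49 to 0.56, among them DMSO replicate 3 of RIVA (0.51). With no filter on low counts neither passed, GMDS at -0.68 (adjusted p = 0.133) and LPIN2 at 0.54 (adjusted p = 0.262).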

How the data were processed

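Total RNA was sequenced from RIVA, TMD8 and HBL1 cells with Rhosin, ibrutinib or DMSO, 27 libraries in 9 groups of 3. The authors deposited whole-number counts per Ensembl gene ID, 1 table per line. A further deposited table, of TMD8 cells under 50 nM copanlisib, holds values used here as log2 levels; only its 2 wild-type columns were used, to check names. The submitters' processing notes name bcl2fastq, cutadapt, STAR, RSEM and Picard and the builds GRCh37 and hg19; which counting settings and strand option were chosen is not given in the sources used here. Gene names and positions are those of GENCODE release 29 (GRCh38) by ID, and no coordinates were converted.

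Of the 63140 rows, 3021 lay in the 7 segments, 1050 of these had a level in the check table, and 926 lay within 2 log2 units of the trend or were low in both (under 10). Rows outside entered the tests unnamed. Counts were filtered (filterByExpr), TMM-scaled and fitted in R 4.3.3 with edgeR 4.0.16 (quasi-likelihood F-test), with the 9 RIVA libraries for comparisons within RIVA and 27 for differences between lines. Benjamini-Hochberg adjustment ran over all rows tested with a threshold of 0.05, and the SE was derived from the log2 change and F. CPM are TMM-scaled, except the sums over marker and line-typical rows, which are per library total. The fit was tested on simulated data. Depth, the totals in the report, limits precision at low counts.

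The rule for named genes took the 12 largest rises and 12 largest falls with groups that did not overlap and a mean of 1 CPM or more, up to 6 called and 3 other members of each list, and the 5 largest differences each way between drugs or lines. CD83, which missed the level check, was an exception by the rule, and values of further list members were added after they were seen. Members and lists were chosen with earlier results of these data known. No replicate pair agreed within sampling noise, with chi-square per degree of freedom of 6.71 to 16.75. Same-numbered libraries correlated at 0.251, 0.483 and 0.194 in HBL1, over 0.1 in every pair, so its numbers were taken to pair. Alternatives were other scalings, filters, DESeq2 1.42.0, a replicate term and each library left out. The counts of 1 gene list are not reported here.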

Additional observations from a re-analysis of the deposited data

Results flagged for a closer look

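The Rhosin responses of these 18 genes differed between lines by the interaction test in edgeR. Compared with TMD8, the RIVA response was higher by 1.8 for TXNDC5, 1.93 for SPIRE1, 2.28 for NAT8L, 2.68 for SLC1A3 and 4.73 for NSUN7. It was lower for LRRC14B (-3.51), H4C3 (-3.21), SHB (-2.46), PDZD2 (-2.39), LY86-AS1 (-2.29) and CD72 (-2.11). Fitted again with DMSO replicate 3 of RIVA left out, SLC1A3 was at 3.10, NSUN7 at 4.79, LRRC14B at -3.51 and H4C3 at -3.28, past the threshold in that fit. In other fits that left out 1 library H4C3 lost its call 7 times, at -3.33 to -2.66 (RIVA Rhosin replicate 1 or 3, RIVA DMSO replicate 1 or 2, TMD8 Rhosin replicate 2, TMD8 DMSO replicate 1 or 3). NSUN7 lost it 4 times, at 4.34 to 4.74 (any TMD8 Rhosin replicate, TMD8 DMSO replicate 1), and with no filter on low counts (4.72). SLC1A3 and H4C3 lay under 3 CPM in every library shown, and NSUN7 was at 0 in all 3 TMD8 Rhosin libraries, so its fitted value depends on the prior count and is no bound.

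SLC1A1 (-5.53), MBOAT1 (-5.58) and ZNF556 (-3.86) rested on DMSO replicate 3 of RIVA, the library with rows typical of TMD8. SLC1A1 had 0.337, 0.412 and 0.244 CPM with Rhosin, against 0.274, 0.421 and 51.2 CPM in DMSO. ZNF556 had 0.0842, 0 and 0.244 CPM with Rhosin, against 0.137, 0.169 and 6.78 CPM in DMSO. MBOAT1 was at 0 in all RIVA libraries of both groups but DMSO replicate 3, which had 1.15 CPM. Leaving that library out gave 0.02, -0.20 and -0.75 for SLC1A1, ZNF556 and MBOAT1, none past the threshold. MBOAT1 and ZNF556 also lost their calls without other single libraries, at -5.74 to -5.36 and -5.05 to -3.33.

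Compared with HBL1, the RIVA response was higher for LPIN2 (0.54) and lower for GCNT2 (-1.28), TLR10 (-1.22) and GMDS (-0.69). GCNT2, TLR10 and GMDS also passed with DMSO replicate 3 left out, and LPIN2 did not (0.51).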

How the results depend on the processing

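For Rhosin against DMSO, every alternative that kept all 6 libraries gave 1920 to 2822 rows and 156 to 218 genes. Leaving out 1 library gave 1113 to 1933 rows and 98 to 165 genes. For Rhosin against ibrutinib these ranges were 380 to 940 rows and 28 to 87 genes, for RIVA minus TMD8 1184 to 1628 rows and 90 to 120 genes, and for RIVA minus HBL1 42 to 113 rows and 2 to 9 genes. With a replicate block, 1921 rows and 169 genes passed for Rhosin against ibrutinib, 3208 and 256 for RIVA minus TMD8 and 607 and 53 for RIVA minus HBL1. Same-numbered Rhosin and DMSO libraries of RIVA correlated at 0.198, 0.239 and -0.105, so their numbers were not taken to pair. The block gave 2822 rows and 218 genes for Rhosin against DMSO, among them OTULIN (-0.21), BSG (-0.28), BTN3A2 (0.28), GPX4 (-0.34) and CD151 (-0.41). Of 589 level-checked genes 218 were thus called, in place of 160. In the NF-kB list 1 of 14 members rose and 6 fell with the block, in place of none and 4. With no filter on low counts, 252 rows and 29 genes passed for RIVA minus HBL1, in a fit whose p-values can understate the spread between libraries. The difference of SLC1A1 between RIVA and TMD8 ran from -6.15 without DMSO replicate 1 to 0.0172 without DMSO replicate 3, where its sign turned. Of the single-gene values of Rhosin against DMSO under the alternatives, 1631 kept their side of the threshold and direction, 64 lost the call and 27 gained it. The fits without DMSO replicate 3 that go beyond Rhosin against DMSO, and the list counts per setting, were added after seeing the data. Causes of these shifts were not tested. Genes of a few CPM, such as S1PR4, EFNA2 and NLRP6, are limited by depth, and only counting error and the spread of 3 libraries are covered.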
